A study of Malus domestica with 18 samples.

Results

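Lea1, Lea2a, Lea2b and Lea4 were the 4 genes for late embryogenesis abundant (LEA) proteins among 18 target genes measured by RT-qPCR in embryonic axes of aged apple (Malus domestica) seeds. They were taken by their gene names from the deposited tables, which also hold 2 reference genes, Sar1 and Pdi, and so 20 genes in all. Every seed had been aged moist at 33 °C for 7, 14 or 21 days, and no unaged seeds were analysed here. Control embryos were isolated from the aged seeds and left untreated, whereas NO-treated embryos were exposed for 3 h to the nitric oxide given off by 14.5 mM NaNO2 in 0.2 M HCl. Both kinds of embryo were cultured for 48 h before the axes were cut out, so all values describe axes after this culture. Each of the 6 groups held 3 biological replicates, which gave 18 samples, and each sample was bulk RNA of axes. The 18 target genes include no marker of axis tissue, so the tissue label could not be checked. In bulk RNA, fewer cells that use a gene and less RNA per cell cannot be told apart.

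LEA proteins accumulate late in seed development, when the embryo prepares for drying, and they decline again once the seed germinates. Most are very hydrophilic and have little fixed structure in water, and they are known for shielding membranes and other proteins as water is withdrawn. Members of the LEA_2 family stand apart, since they hold a folded WHy (water stress and hypersensitive response) domain.

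The deposited annotation describes all 4 genes only as late embryogenesis abundant proteins, and it gives each primer pair several gene models of the Genome Database for Rosaceae. These are MDP0000850643 and MDP0000187047 for Lea1, MDP0000808291 and MDP0000385140 for Lea2a, MDP0000281672, MDP0000552607 and MDP0000282151 for Lea2b, and MDP0000183836, MDP0000183375 and MDP0000305723 for Lea4. Each value may therefore sum the signal of 2 or 3 gene models. How alike these models are, and what each contributed, was not tested. The study's primer table pairs Lea1 with the Arabidopsis protein LEA46, Lea2a with an Arabidopsis WHy-domain protein, Lea2b with an Arabidopsis protein with a LEA_2 domain, and Lea4 with Arabidopsis ECP63. Only 1 of the 44 listed gene identifiers had a match in the RefSeq annotation given, and it belongs to another gene, so no genome position is stated for the Lea genes.

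The primers are shown because each Lea value is the signal of 1 such pair and each level rests on the 2 reference pairs, with the 5 bases at the 3′ end, from which the polymerase extends, in capitals.
Lea1 forward: caccagatgtccgcACTTC
Lea1 reverse: acccgtgttggtccCAATA
Lea2a forward: tccactactcctCCACC
Lea2a reverse: atatccacagcgGCGTC
Lea2b forward: ggatcaagtacggcgagTCCAG
Lea2b reverse: acgacttggcggacAGTGT
Lea4 forward: gtcgatgatgaaggcaGTGAC
Lea4 reverse: gcccttctcttgaaccTGACT
Sar1 forward: ttgatttgggcgggcatcaGATTG
Sar1 reverse: tcatcagagaggagagcatCCAGC
Pdi forward: tgctgtacacagccaACGAT
Pdi reverse: catctttagcggcgttatCCTTG
The Lea primers were 17 to 22 bases long, and the longest run of bases shared by primers of different Lea genes was 7 bases. Lea2a and Lea2b, whose Arabidopsis matches both hold domains of the LEA_2 type, were thus read by primers of different sequence.

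The quantification cycle (Cq) is the PCR cycle at which a product is first detected, so a higher cycle means less transcript. Over the 18 samples it ran from 21.3 to 25.1 for Lea1, from 21.2 to 23.8 for Lea4, from 25.2 to 26.6 for Lea2a and from 27.0 to 28.2 for Lea2b. Cycles of different genes depend on their primers and products, so levels were compared within a gene only. Lea1 was the least repeatable gene of the panel, with a pooled standard deviation between replicates of 0.353 cycles, the highest of the 18 target genes. Lea2a ranked 3 with 0.185 cycles, Lea2b ranked 5 with 0.156 and Lea4 ranked 12 with 0.143 cycles. A given difference was therefore harder to tell from replicate error for Lea1 than for Lea4.

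A level was computed as the mean cycle of Sar1 and Pdi minus the target cycle, with 1 doubling per cycle, and is given relative to the mean of the 7-day control. All 18 samples and 18 target genes were fitted with limma, with Benjamini-Hochberg adjustment over the 18 genes. A gene was called when its adjusted p was under 0.05. NO was compared with control on the relative expression that the authors deposited, a ratio in which the control of the same aging time is at about 1.

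In control axes the transcripts of Lea1, Lea2a and Lea4 fell late in aging while that of Lea2b rose. Lea1 stood at 1.33, 0.599 and 1.07 in the 7-day control, at 1.12, 0.750 and 0.775 after 14 days and at 0.366, 0.244 and 0.275 after 21 days. The 7-day and 14-day samples overlapped, and all 3 samples of 21 days lay below both earlier times. Lea4 stood at 1.05, 0.839 and 1.11, then at 1.07, 1.37 and 1.15, then at 0.449, 0.460 and 0.472, again with the last time apart from the others. Lea2a, the gene with the WHy-domain match, stood at 1.18, 0.764 and 1.06, then at 1.09, 1.13 and 1.76, then at 0.688, 0.692 and 0.700. Its highest sample was replicate 3 of 14 days, and its 21-day samples lay below all other controls. Lea2b went the other way, from 1.10, 0.800 and 1.10 and then 0.896, 1.03 and 1.14 to 1.47, 1.39 and 1.51, so that its 21-day samples were above all earlier controls.

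**Figure D1:**
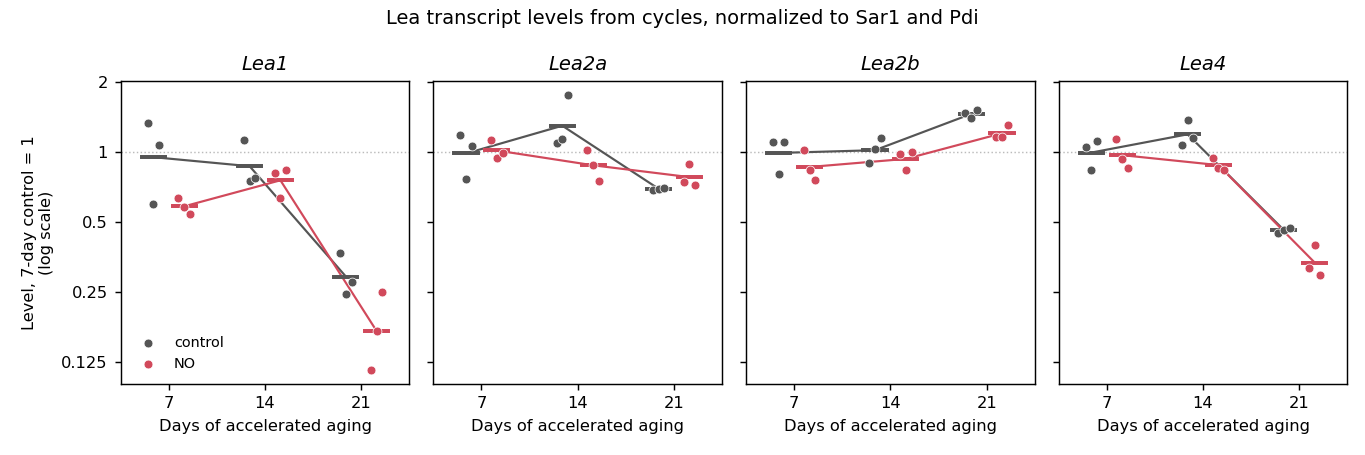
Level of each Lea gene (log scale, 7-day control at 1) against days of accelerated aging in control (grey) and NO-treated (red) axes, from cycles normalized to Sar1 and Pdi. Points are the 3 samples of a group, short bars their mean on the log2 scale, and lines join the means. Lea1 and Lea4 are lowest at 21 days in both treatments, and Lea2b is highest there.

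From 14 to 21 days all 4 genes were called in control axes, 3 lower and 1 higher, where 88.9% of the 18 target genes were called, 50% lower and 38.9% higher. The log2 change was -1.58 for Lea1 (95% confidence interval -2.07 to -1.09, adjusted p = 9.8e-07 from limma), -1.37 for Lea4 (adjusted p = 1.7e-09), -0.90 for Lea2a (adjusted p = 2.6e-05) and 0.52 for Lea2b (adjusted p = 0.00175). The median over the 4 genes was -1.14, beside -0.20 over all 18 target genes. From 7 to 14 days 1 of the 4 was called, Lea2a higher by 0.40, where 77.8% of the target genes were called, 38.9% in each direction, and the Lea median was 0.15 beside -0.041 over all 18. Between 21 and 7 days 4 of 4 were called, 3 lower and 1 higher, and 72.2% of the target genes were, 50% lower and 22.2% higher, with a Lea median of -0.81 beside -0.32 over all 18.

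The early step depended on the reference genes. The cycle of Sar1 rose by 0.596 and that of Pdi by 0.856 from the 7-day to the 14-day control, and stood 0.18 and 0.828 above the 7-day control after 21 days. From 7 to 14 days the cycles without any reference gene gave lower values for all 4 genes. The log2 changes were -0.86 for Lea1, -0.33 for Lea2a, -0.69 for Lea2b and -0.47 for Lea4, which turns Lea2a, Lea2b and Lea4. All 4 were called lower, so Lea2a (adjusted p = 0.0379 from limma) was called against the direction of its early call. The early call of Lea2a also ended when control replicate 2 of 7 days was left out, with an adjusted p of 0.237 from limma, or control replicate 3 of 14 days, with 0.337. Its call between 21 and 7 days ended when control replicate 1 of 7 days was left out, with an adjusted p of 0.0597, and with Pdi as the only reference (log2 change -0.18) or samples centred on the 18 target genes (-0.24). The 4 calls from 14 to 21 days were made again whichever single sample of the 6 was left out. With Sar1 as the only reference Lea2b was no longer called, at a log2 change of 0.33 from 14 to 21 days (adjusted p = 0.0749) and of 0.23 between 21 and 7 days (adjusted p = 0.204). The latter change of Lea2b was also not called without any reference gene (0.054, adjusted p = 0.661). The methods' test across days, Tukey's test, was run on the untransformed levels from Sar1 and Pdi and not on values the authors deposited. By it, Lea1 from 14 to 21 days (adjusted p = 0.0612) and Lea2a between 21 and 7 days (adjusted p = 0.353) were not called.

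A second set of deposited control values, set to about 1 at 7 days, follows the target cycles with no correction for the reference genes between days. Its log2 values divided by the cycle differences gave 1 amplification factor per gene, with no residual over the 14-day and 21-day means. On these values Lea2b was not called between 21 and 7 days (log2 change 0.053, adjusted p = 0.684). From 7 to 14 days they already gave lower calls by limma for Lea1 (-0.77, adjusted p = 0.0055), Lea2b (-0.67, 0.000178) and Lea4 (-0.44, 0.0015). Lea2a was not called at that step (-0.34, adjusted p = 0.0864). The factor, the fold gain in product per cycle, was 1.86 for Lea1, 2.04 for Lea2a, 1.97 for Lea2b and 1.93 for Lea4, against the 2 that a full doubling would give. The factor was lowest for Lea1. With these factors for targets and references, an alternative added after the data were seen, the control log2 change of Lea1 between 21 and 7 days was -1.49 in place of -1.71, and all 4 calls of that comparison were made again.

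In NO-treated axes Lea1 and Lea4 fell late too and Lea2b rose, while Lea2a was not called between 14 and 21 days. Lea1 stood at 0.631, 0.581 and 0.540 of the 7-day control after 7 days with NO, at 0.811, 0.634 and 0.835 after 14 days and at 0.115, 0.169 and 0.249 after 21 days. All 14-day samples were above all 7-day samples and all 21-day samples were below both. Lea4 stood at 1.14, 0.936 and 0.851, then at 0.941, 0.855 and 0.838, then at 0.315, 0.399 and 0.296, so that only the last time was apart. Lea2a stood at 1.12, 0.938 and 0.990, then at 1.02, 0.881 and 0.749, then at 0.739, 0.888 and 0.720, with the last 2 times overlapping. Lea2b stood at 1.01, 0.834 and 0.754, then at 0.975, 0.835 and 0.996, then at 1.15, 1.16 and 1.30, the last above all others.

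From 14 to 21 days with NO, 3 of the 4 genes were called, where 94.4% of the target genes were, 61.1% lower and 33.3% higher. Lea1 fell by 2.16 on the log2 scale (95% confidence interval -2.65 to -1.67, adjusted p = 2.8e-09 from limma) and Lea4 by 1.39 (adjusted p = 7.1e-10), while Lea2b rose by 0.37 (adjusted p = 0.0171). Lea2a had a log2 change of -0.17 (95% confidence interval -0.52 to 0.18, adjusted p = 0.327), and its step differed from that of the control by 0.73 (adjusted p = 0.0112), a difference called in 50% of the target genes. When centred, Lea2a was called higher at this step (0.33, adjusted p = 0.0459). Leaving out NO replicate 2 of 14 days raised the adjusted p of Lea2b to 0.0931, and leaving out NO replicate 3 of 21 days raised it to 0.0703.

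From 7 to 14 days with NO none of the 4 genes was called by limma, where 66.7% of the target genes were, 44.4% lower and 22.2% higher, and none had an unadjusted p under 0.05. The log2 changes were 0.37 for Lea1 (adjusted p = 0.168), -0.21 for Lea2a (adjusted p = 0.266), 0.12 for Lea2b (adjusted p = 0.451) and -0.14 for Lea4 (adjusted p = 0.372). With other normalizers this step gave calls of opposite direction. Lea2a (-0.59) and Lea4 (-0.52) were called lower with Sar1 alone, and Lea1 (0.75) and Lea2b (0.49) were called higher with Pdi alone.

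Between 21 and 7 days with NO all 4 were called, 3 lower and 1 higher, where 77.8% of the target genes were called, 55.6% lower and 22.2% higher. Lea1 (log2 change -1.78, adjusted p = 1.5e-07 from limma), Lea4 (-1.54, adjusted p = 1.5e-10) and Lea2a (-0.38, adjusted p = 0.0422) fell, and Lea2b rose (0.48, adjusted p = 0.0037). The median over the 4 genes was -0.96, beside -0.50 over all 18 target genes. When the samples were centred on the median of the 18 target genes, Lea2a was called in the other direction (log2 change 0.49, adjusted p = 0.00476), and with Pdi alone it was not called (-0.049, adjusted p = 0.78). Lea2b was not called with Sar1 alone (0.15, adjusted p = 0.404), and without a reference gene its sign turned (-0.20, adjusted p = 0.121). The call of Lea2a also ended when any of 4 NO-treated samples was left out, with an adjusted p of 0.145 for replicate 1 and 0.0707 for replicate 3 of 7 days, and of 0.116 for replicate 1 and 0.121 for replicate 3 of 21 days.

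With NO against control at the same aging time, only Lea2a and Lea4 were called, and only after 14 days, both lower. The relative expression of Lea1 after 7 days was 1.22, 0.804 and 1.02 in the control and 0.708, 0.764 and 0.881 with NO, which overlapped. That of Lea2a was 1.08, 0.949 and 0.975 against 1.19, 1.14 and 1.51, with every NO-treated sample above every control. Lea4 was likewise higher in each NO-treated sample, at 1.17, 1.13 and 1.27 against 0.951, 1.04 and 1.01. For Lea2b the control samples at 1.003, 0.995 and 1.003 lay just below the NO-treated samples at 1.06, 1.01 and 1.14. Groups failed to overlap for 3 of the 4 Lea genes, beside 55.6% of all 18 target genes. In the levels from cycles of Sar1 and Pdi, NO-treated and control samples of 7 days overlapped for all 4 Lea genes.

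**Figure D2:**
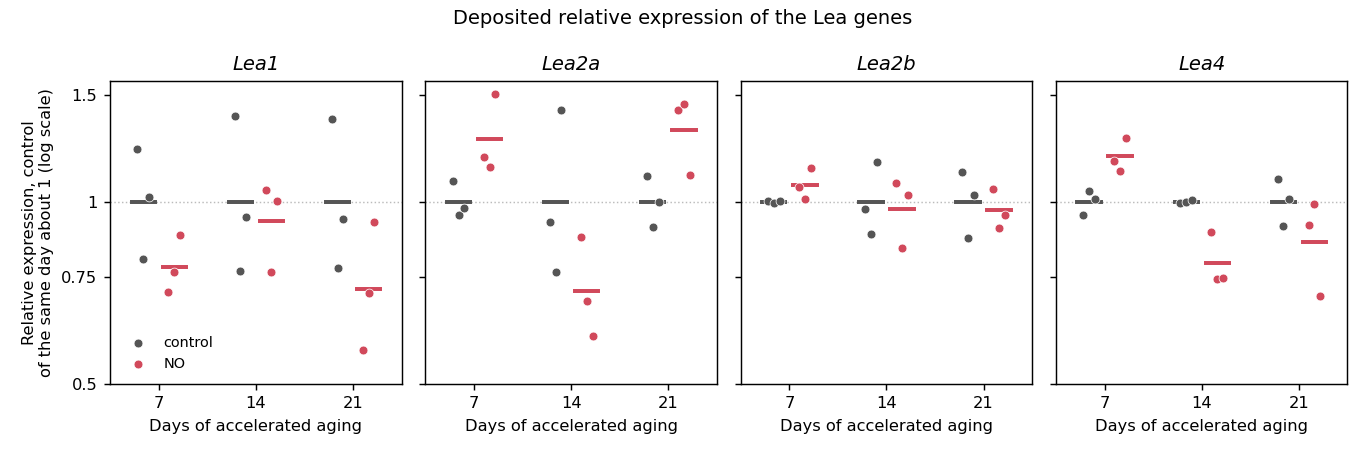
Deposited relative expression of each Lea gene (log scale, control of the same day at about 1) against days of accelerated aging in control (grey) and NO-treated (red) axes. Points are the 3 samples of a group and short bars their mean on the log2 scale. The 3 NO-treated samples of Lea2a lie above the controls at 7 and 21 days, and those of Lea4 lie above them at 7 days and below them at 14 days.

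At 7 days none of the 4 genes was called by limma, where 33.3% of the target genes were, 16.7% in each direction, and none had an unadjusted p under 0.05. The log2 fold change was -0.36 for Lea1 (95% confidence interval -0.82 to 0.10, adjusted p = 0.167), 0.34 for Lea2a (-0.034 to 0.72, adjusted p = 0.154), 0.092 for Lea2b (-0.17 to 0.35, adjusted p = 0.467) and 0.25 for Lea4 (-0.0071 to 0.50, adjusted p = 0.144). Exact permutation tests of 3 samples against 3 cannot give a p under 0.1.

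At 14 days the relative expression of Lea2a was 0.924, 0.764 and 1.42 in the control and 0.872, 0.686 and 0.600 with NO, so the groups overlapped and control replicate 3 was the highest. For Lea4 it was 0.996, 0.998 and 1.01 against 0.892, 0.744 and 0.748, with every NO-treated sample below every control. Lea1 stood at 1.38, 0.768 and 0.941 against 1.05, 0.766 and 1.002, and Lea2b at 0.974, 0.884 and 1.16 against 1.07, 0.839 and 1.03, both overlapping. Lea2a (log2 fold change -0.49, 95% confidence interval -0.87 to -0.12) and Lea4 (-0.34, -0.59 to -0.082) were called lower with an adjusted p of 0.0286 each from limma, 2 of 4 where 44.4% of the target genes were called, 27.8% lower and 16.7% higher. Groups failed to overlap for 1 of the 4, beside 44.4% of the target genes. Both calls hung on single samples. Leaving out control replicate 3 raised the adjusted p of Lea2a to 0.283, leaving out NO replicate 2 to 0.0897 and leaving out NO replicate 3 to 0.158. For Lea4 it rose to 0.0589, 0.058 and 0.069 when control replicate 1, 2 or 3 was left out, and to 0.115 and 0.12 when NO replicate 2 or 3 was. Centred on the 18 target genes, neither was called. Lea2a was also not called without moderation of the variances (adjusted p = 0.0775), with the compared groups only (0.111) or on untransformed values (0.0729). By the methods' own test, Student's t-test, it was not called either (unadjusted p = 0.211, adjusted p = 0.309). Lea4 kept its call in these settings and lost it with Pdi alone (-0.31, adjusted p = 0.0992).

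At 21 days Lea2a stood at 1.10, 0.909 and 0.997 in the control and at 1.42, 1.45 and 1.10 with NO, where the lowest NO-treated sample was just above the highest control. Lea1 stood at 1.37, 0.778 and 0.938 against 0.569, 0.705 and 0.925, Lea2b at 1.12, 0.872 and 1.02 against 1.05, 0.906 and 0.951, and Lea4 at 1.09, 0.910 and 1.01 against 0.916, 0.990 and 0.699, all overlapping. No Lea gene was called by limma, where 44.4% of the target genes were, 27.8% lower and 16.7% higher, and groups failed to overlap for 1 of 4 beside 50% of the target genes. Lea1 (log2 fold change -0.48, 95% confidence interval -0.94 to -0.018) and Lea2a (0.39, 0.018 to 0.77) had an unadjusted p under 0.05 and an adjusted p of 0.0759 each. The estimate was -0.22 for Lea4 (adjusted p = 0.132) and -0.048 for Lea2b (adjusted p = 0.788). Lea1 was called lower once control replicate 2 (adjusted p = 0.0278) or NO replicate 3 (adjusted p = 0.0266) was left out, and Lea2a was called higher once NO replicate 3 was (adjusted p = 0.0302).

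The size and in part the sign of these NO effects depended on the normalizer. When the cycles were corrected by the amplification factors, the relative expression of all 4 Lea genes implied the same normalizer in each sample, and this normalizer was not the deposited Sar1 and Pdi cycles, from which it differed by a root mean square of 0.217 on the log2 scale. Its mean shift from control to NO was 0.288 above that of the deposited reference cycles at 7 days, 0.089 above at 14 days and 0.219 above at 21 days. Levels computed from the cycles of Sar1 and Pdi were therefore lower with NO by nearly the same amount for each Lea gene. At 7 days they gave log2 fold changes of -0.70 for Lea1 (adjusted p = 0.0147 from limma), 0.043 for Lea2a (adjusted p = 0.801), -0.20 for Lea2b (adjusted p = 0.257) and -0.037 for Lea4 (adjusted p = 0.801), so 1 of 4 was called where 44.4% of the target genes were. At 14 days Lea2a (-0.57, adjusted p = 0.00629) and Lea4 (-0.44, adjusted p = 0.011) were called as before, where again 44.4% were. At 21 days Lea1 (-0.78) and Lea4 (-0.47) were called with an adjusted p of 0.00636 each, where 55.6% were. Which normalizer served these genes better was not tested.

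**Figure D3:**
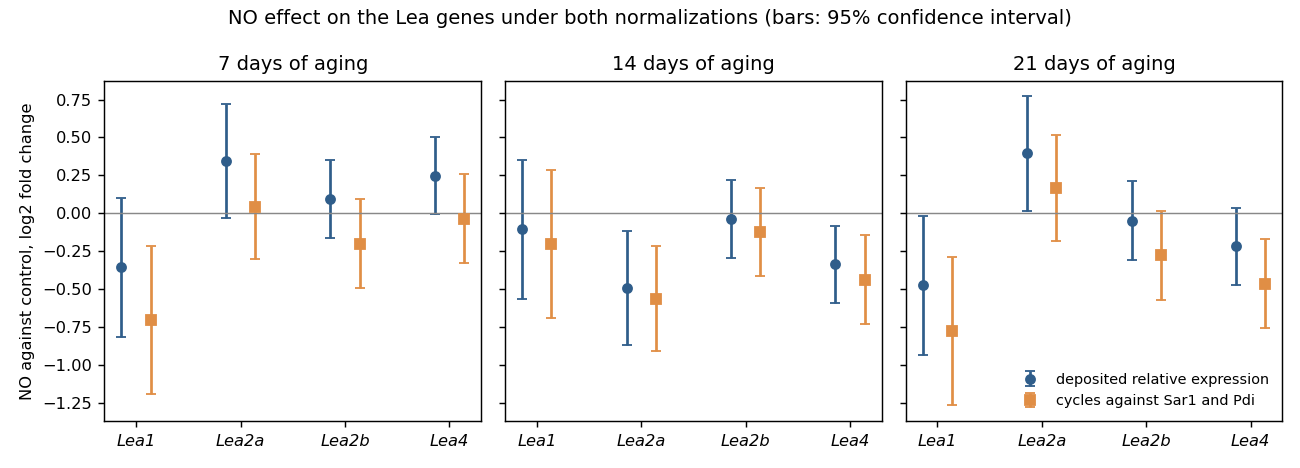
Log2 fold change of NO against control for each Lea gene at 7, 14 and 21 days of aging, from the deposited relative expression (blue circles) and from cycles against Sar1 and Pdi (orange squares), with 95% confidence intervals from limma over 18 samples. Each orange square lies below its blue circle, and the order of the 4 genes within a day is the same under both.

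The NO effect on Lea2a differed between aging times at both steps, and that on Lea4 at the first. From 7 to 14 days its log2 effect dropped by 0.84 (95% confidence interval -1.37 to -0.30, adjusted p = 0.00832 from limma), and from 14 to 21 days it rose by 0.89 (0.35 to 1.42, adjusted p = 0.00591). The NO effect of Lea4 dropped by 0.58 from 7 to 14 days (-0.95 to -0.22, adjusted p = 0.00734) and differed by 0.12 between 14 and 21 days (adjusted p = 0.601). Thus 2 of 4 differences were called from 7 to 14 days, both lower where 61.1% of the target genes were called (33.3% lower and 27.8% higher), and 1 of 4 from 14 to 21 days, higher where 50% were (22.2% higher and 27.8% lower). These 3 calls were made again whichever single sample of the 12 compared was left out. All 3 use the 14-day samples.

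Between 21 and 7 days no difference of NO effects was called, where 16.7% of the target genes had one, all lower, and that of Lea4 came closest (-0.47, adjusted p = 0.0536 from limma, unadjusted p under 0.05). It was called once control replicate 2 (adjusted p = 0.0397) or NO replicate 2 (adjusted p = 0.0162) of 21 days was left out. For Lea1 the differences were 0.25 from 7 to 14 days (95% confidence interval -0.40 to 0.90) and -0.37 from 14 to 21 days (-1.02 to 0.28). For Lea2b they were -0.13 (-0.50 to 0.23) and -0.01 (-0.38 to 0.35). From cycles with Sar1 and Pdi the differences of Lea2a were called again, at -0.61 (adjusted p = 0.0278) where 61.1% were and at 0.73 (adjusted p = 0.0112) where 50% were, while that of Lea4 from 7 to 14 days was -0.40 (adjusted p = 0.0861). With Pdi alone neither difference of Lea2a was called (-0.36 with an adjusted p of 0.197, and 0.49 with 0.0918), while that of Lea1 from 14 to 21 days was (-0.82, adjusted p = 0.0395). Centred on the 18 target genes, the differences from 7 to 14 days were called for other members, with Lea1 (1.0025, adjusted p = 0.0153) and Lea2b (0.58, adjusted p = 0.0111) higher, and not for Lea2a (-0.11) or Lea4 (0.098). That of Lea4 was not called with the amplification factors (adjusted p = 0.093) or Pdi alone (-0.16, adjusted p = 0.494) either.

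The 4 genes were then set against each other within each sample, where any normalizer cancels. A log2 ratio of a pair is the cycle of the second gene minus that of the first, given relative to the mean of the 7-day control, with adjustment over every pair of the 18 target genes. After 7 days Lea1 was lower relative to Lea2a and to Lea4 with NO than without. The ratio of Lea1 to Lea2a was 1.17, 0.813 and 1.05 in the control and 0.584, 0.642 and 0.566 with NO, and that of Lea1 to Lea4 was 1.32, 0.747 and 1.01 against 0.580, 0.649 and 0.664. In both every NO-treated sample was below every control. These 2 of 6 Lea pairs were called, at log2 changes of -0.75 (95% confidence interval -1.31 to -0.18, adjusted p = 0.0197 from limma) and -0.67 (-1.22 to -0.12, adjusted p = 0.0319), where 66.7% of all pairs were called. Lea1 to Lea2b missed the threshold at -0.50 (adjusted p = 0.0582), although its groups did not overlap either, and was called once control replicate 2 was left out (adjusted p = 0.0156). The adjusted p of Lea1 to Lea2a rose to 0.0788 or 0.0526 when control replicate 1 or 3 was left out and to 0.0557 when NO replicate 3 was. That of Lea1 to Lea4 rose to 0.172 or 0.0666 with control replicate 1 or 3 left out, and to 0.0909, 0.0556 or 0.0533 with NO replicate 1, 2 or 3 left out.

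After 14 days with NO, Lea2a was lower relative to Lea2b, its fellow of the LEA_2 type. The ratio was 1.22, 1.11 and 1.55 in the control and 1.05, 1.06 and 0.756 with NO, without overlap. This was the only Lea pair called (log2 change -0.44, 95% confidence interval -0.77 to -0.11, adjusted p = 0.0182 from limma), 1 of 6 where 66.7% of all pairs were called. With control replicate 3 left out its adjusted p was 0.12, and with NO replicate 3 left out it was 0.14. The ratio of Lea2b to Lea4 was 0.32 higher with NO on the log2 scale and missed the threshold (adjusted p = 0.0626), and it was called once control replicate 3 was left out (adjusted p = 0.0223), as was Lea1 to Lea2a once control replicate 1 was (0.68, adjusted p = 0.0284).

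After 21 days Lea2a was higher with NO relative to each of the others. The ratio of Lea2a to Lea4 was 1.55, 1.52 and 1.50 in the control and 2.36, 2.25 and 2.46 with NO. The samples of each group lay close together and the groups were far apart. The ratio of Lea2a to Lea2b was 0.472, 0.499 and 0.465 against 0.644, 0.769 and 0.557, and that of Lea1 to Lea2a was 0.551, 0.366 and 0.407 against 0.162, 0.198 and 0.358, neither with overlap. These 3 of 6 pairs were called, where 73.9% of all pairs were, with log2 changes of 0.63 for Lea2a to Lea4 (95% confidence interval 0.28 to 0.98, adjusted p = 0.00201 from limma), 0.44 for Lea2a to Lea2b (0.11 to 0.77, adjusted p = 0.0163) and -0.95 for Lea1 to Lea2a (-1.51 to -0.38, adjusted p = 0.00364). With NO replicate 2 left out Lea2a to Lea2b was not called (adjusted p = 0.0988), whereas no single left-out sample ended the other 2 calls. Without NO replicate 3, Lea1 to Lea2b (-0.73) and Lea1 to Lea4 (-0.68) were called as well. Lea1 to Lea2b was also called without control replicate 2 (-0.60, adjusted p = 0.0418), and Lea2b to Lea4 without NO replicate 2 (0.34, adjusted p = 0.0485).

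**Figure D4:**
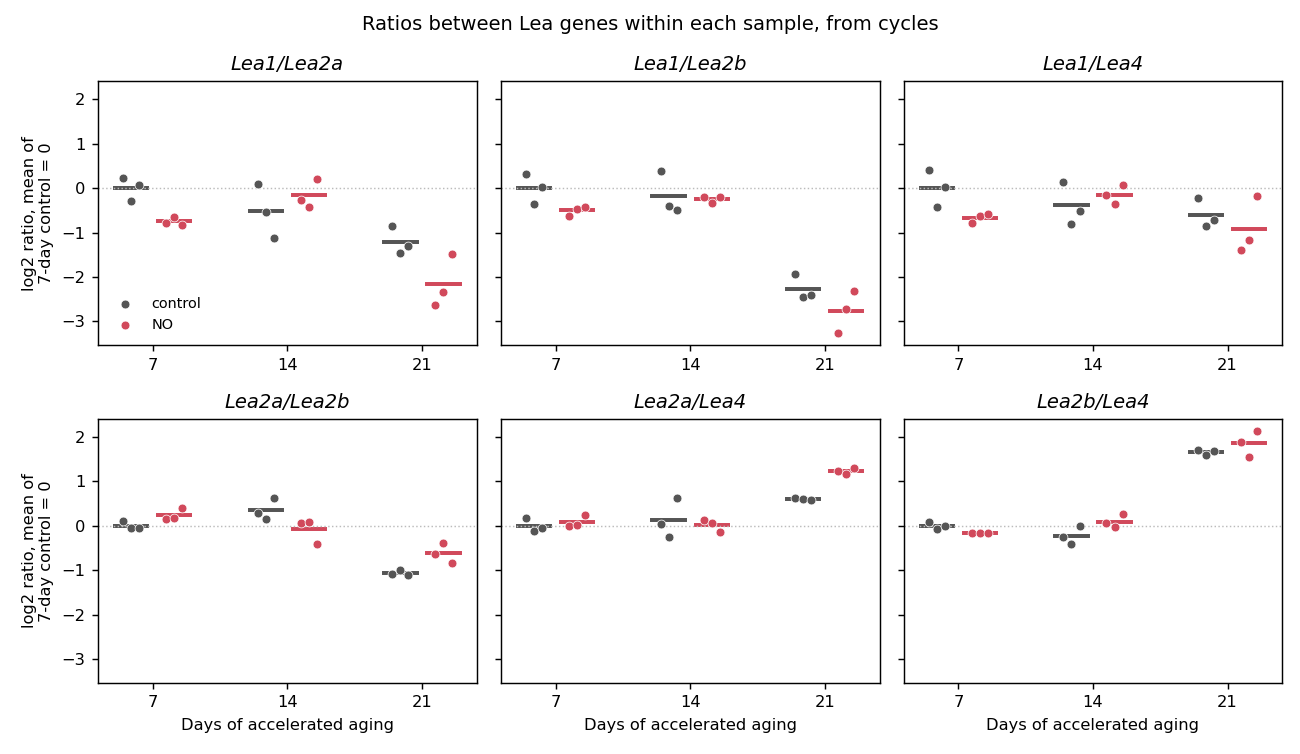
Log2 ratio of each of the 6 Lea pairs within each sample (mean of the 7-day control at 0) against days of accelerated aging in control (grey) and NO-treated (red) axes, from cycles with 1 doubling per cycle. Points are the 3 samples of a group and short bars their mean. At 21 days the ratio of Lea2a to Lea4 lies between 1.17 and 1.30 with NO and between 0.58 and 0.63 in the control.

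The longest aging time set the genes apart in both treatments. In the control the ratio of Lea1 to Lea2b was 1.25, 0.781 and 1.02 at 7 days and 0.260, 0.183 and 0.189 at 21 days, and that of Lea2b to Lea4 was 1.06, 0.957 and 0.990 against 3.27, 3.04 and 3.22. With NO they were 0.104, 0.152 and 0.200 for Lea1 to Lea2b and 3.67, 2.92 and 4.41 for Lea2b to Lea4 at 21 days. All 6 Lea pairs were called in the control between 21 and 7 days, where 79.1% of all pairs were, with log2 changes from -2.27 for Lea1 to Lea2b to 1.67 for Lea2b to Lea4. Lea1 to Lea4 had the highest adjusted p there (0.0435 from limma, log2 change -0.60). Its call ended when control replicate 1 or 3 of 7 days was left out (adjusted p = 0.209 and 0.0837) or control replicate 2 or 3 of 21 days (0.144 and 0.107), and with the amplification factors (0.0864) or without moderation of the variances (0.112). With NO 5 of 6 pairs were called between these times, where 85.6% of all pairs were, and the exception was Lea1 to Lea4 (-0.25, adjusted p = 0.376). That pair was called once NO replicate 3 of 21 days was left out (-0.61, adjusted p = 0.0239).

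The steps between differed. From 7 to 14 days 1 Lea pair was called in the control, where 79.1% of all pairs were, namely Lea2a to Lea2b (log2 change 0.36, adjusted p = 0.0435 from limma). That call ended with control replicate 2 or 3 of 7 days left out (adjusted p = 0.101 each), with control replicate 1 or 3 of 14 days left out (0.0521 and 0.23), and with the amplification factors (0.0566). Without control replicate 1 of 14 days, Lea1 to Lea2a (-0.84) and Lea1 to Lea4 (-0.65) were called instead, and without control replicate 2 of 7 days Lea1 to Lea2a was (-0.68). With NO no Lea pair was called at this step by limma, where 80.4% of all pairs were, and 1 had an unadjusted p under 0.05. With the amplification factors 2 were called, Lea1 to Lea2a (0.66) and Lea2a to Lea2b (-0.37), and both were also called without NO replicate 2 of 14 days (0.71 and -0.41), while Lea2a to Lea2b was without NO replicate 1 of 14 days (-0.40). From 14 to 21 days 5 of 6 pairs were called in the control, where 83.7% of all pairs were, and 6 of 6 with NO, where 88.9% were. In the control Lea1 to Lea2a was not called with replicate 1 or 2 of 14 days left out (adjusted p = 0.207 and 0.05005) or replicate 2 or 3 of 21 days (0.0937 and 0.0666), with the amplification factors (0.0576) or without moderation (0.0798), nor Lea2a to Lea4 with replicate 2 of 14 days left out (0.13). With NO, Lea1 to Lea4 was not called with replicate 1 or 2 of 21 days left out (0.0818 and 0.0571).

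The pattern over all 18 samples was most alike for Lea1 and Lea4 among the 4 genes, with a Pearson r of 0.904 between their log2 levels. The r was 0.743 for Lea2a and Lea4 and 0.618 for Lea1 and Lea2a, while Lea2b had r of -0.49, -0.32 and -0.59 with Lea1, Lea2a and Lea4. Without reference genes these last 3 were -0.048, 0.24 and 0.014, so no sign is read from them. Outside the family, over the 14 other target genes, Lea4 was most like ClpB1 (r = 0.940), a gene for an Hsp100-type chaperone that takes protein aggregates apart, and so was Lea2a (r = 0.758). Lea1 was most like Hsp20a, a small heat shock protein gene (r = 0.805), with ClpB1 next (r = 0.803), and the median over the 14 genes was 0.395 for Lea1, 0.126 for Lea2a and 0.457 for Lea4. Lea2b was most like Tor, the gene for the growth-regulating kinase target of rapamycin (r = 0.550), and least like ClpB4 (r = -0.779). Without reference genes Lea2a was most like ClpB4 (r = 0.880) and Lea2b most like Cpn60a, a chaperonin gene (r = 0.866), while Lea1 and Lea4 kept Hsp20a (0.857) and ClpB1 (0.968). All are descriptions over samples that form 6 groups and share their reference cycles.

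The other protective genes of the panel were counted as 1 list of 11, 10 chaperone genes (Hsp90, 3 Hsp70, 2 Hsp20, 2 ClpB and 2 Cpn60 genes) with Pimt, which encodes an enzyme that repairs damaged aspartyl residues. With NO 3 of these were called higher and 1 lower at 7 days, 3 and 1 at 14 days and 2 and 3 at 21 days. Of the 11, 7 had relative expression that follows the deposited Sar1 and Pdi cycles, and Hsp90 and both Cpn60 genes shared the normalizer of the Lea genes. The relative expression of Hsp70b held the inverted reference cycles alone, with NO effects of 0.19, 0.11 and 0.0084 on the log2 scale at 7, 14 and 21 days where its cycles against Sar1 and Pdi gave 0.84, -0.075 and -2.52. Hsp70b was not among the genes called, and a fit without it, added after the data were seen, called the same Lea genes in every NO comparison and difference. From cycles with Sar1 and Pdi, the list had 4 members called higher and 1 lower at 7 days, 3 and 1 at 14 days and 1 and 4 at 21 days, beside 22.2% higher and 22.2% lower, 16.7% and 27.8%, and 11.1% and 44.4% of the 18 target genes. From 14 to 21 days 4 were called higher and 6 lower in the control, and 3 and 8 with NO. The background shares given above for these comparisons hold here too, and in that step the median log2 change of the 11 genes was -0.34 in the control and -0.83 with NO, beside -1.14 and -0.78 for the 4 Lea genes.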

How the data were processed

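RT-qPCR cycles of 20 genes in 18 samples were deposited, and the report covers the 4 Lea genes. Per the labels, 200 ng of RNA per sample were reverse transcribed, and the product was diluted 3.5 times. Per the study's methods, 3 biological replicates were run in 3 technical repetitions. The deposited cycles (Cq), entered here as a score because they have no fixed range, ran from 19.8 to 30.8. The authors deposited relative expression, a ratio to the control of the same day. Per the study's methods it was normalized with 2 reference genes, but for the Lea genes the deposited Sar1 and Pdi cycles did not reproduce it. A further deposited table of fold changes holds the authors' own comparisons and was not used. Levels were the mean cycle of Sar1 and Pdi minus the target cycle. NO was compared with control on log2 relative expression, days and pairs of genes on cycles, all with limma 3.58.1 in R 4.3.3 (6 group means, 18 samples), checked on simulated data; no filter or pseudocount was needed. Tables and plots used pandas 2.3.3, scipy 1.17.1 and matplotlib 3.10.9. Members and lists were chosen with earlier results of these data known. Named genes were the 4 Lea genes and both reference genes in every comparison and, for each Lea gene, the target gene outside the family with the highest Pearson r. Alternatives were other normalizers, untransformed values, the methods' own tests, gene-wise variances, compared groups only, a replicate block, left-out replicates and, chosen after seeing the data, the amplification factors carried by the deposited values and a fit without Hsp70b. The number of replicates limits precision; RT-qPCR gives no read depth.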

Additional observations from a re-analysis of the deposited data

Results flagged for a closer look

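The effect of NO on Lea2a differed between aging times by the test of the difference itself. On the log2 scale the effect at 14 days minus that at 7 days was -0.84, with NO-to-control effects of -0.49 and 0.34 (adjusted p = 0.00832 from limma, 3 samples in each of the 4 groups). The effect at 21 days minus that at 14 days was 0.89, with effects of 0.39 and -0.49 (adjusted p = 0.00591). Both comparisons use the 14-day samples. For Lea4 the effect at 14 days minus that at 7 days was -0.58, with effects of -0.34 and 0.25 (adjusted p = 0.00734). The difference of Lea4 was not called from cycles with Sar1 and Pdi (-0.40, adjusted p = 0.0861), with the amplification factors (-0.39, adjusted p = 0.093) or with Pdi alone (-0.16, adjusted p = 0.494), and it turned when samples were centred on the 18 target genes (0.098). Those of Lea2a were called from cycles with Sar1 and Pdi (-0.61 and 0.73) and not with Pdi alone (-0.36 and 0.49), and when centred that from 7 to 14 days was not (-0.11). Groups of 3 samples are too small for the test of single far samples, so none was run.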

How the results depend on the processing

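Over 102 single results, 614 refits under other settings kept direction and side of the threshold, 40 lost a call, 46 gained one and 50 turned sign. With a replicate left out 592 kept both, 43 lost a call, 19 gained one and 30 turned sign. The cause was not tested. RT-qPCR has no depth, and 3 replicates a group limit what can be called.

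For NO against control at 7 days, where 0 Lea genes were called, 1 was called from cycles with Sar1 and Pdi, with Sar1 alone, with Pdi alone and with the amplification factors (Lea1 each time), 2 when samples were centred on the 18 target genes, 2 with the compared groups only, and 1 by the methods' own test unadjusted. At 14 days, where 2 were called, 1 was called with Pdi alone (Lea2a) and 0 when centred. Only Lea4 was called without moderation of the variances, with the compared groups only and on untransformed values. The methods' own test, with or without adjustment, also called Lea4 and not Lea2a. At 21 days, where 0 were called, 2 were called from cycles with Sar1 and Pdi, 3 with Pdi alone, 1 with Sar1 alone, 2 without any reference, 1 when centred, 2 with the amplification factors and 2 with the compared groups only. In the control course from 7 to 14 days, where 1 was called, 0 were called with Sar1 alone, when centred, without moderation and by the methods' test across days, 2 with Pdi alone and on untransformed values, 4 without a reference gene and 3 on the deposited values scaled to 7 days. In the NO-treated course from 7 to 14 days, where 0 were called, 2 were called with Sar1 alone and 2 with Pdi alone, 3 without any reference, 2 when centred and 1 with the compared groups only. For the difference of NO effects from 7 to 14 days, where 2 were called, 1 was called from cycles with Sar1 and Pdi and with the amplification factors and 0 with Pdi alone, while centring also called 2, which were Lea1 and Lea2b in place of Lea2a and Lea4. Between 7 and 21 days, where 0 were called, 1 was called without a reference gene and 2 when centred. Of the Lea pairs, 0 in place of 2 were called with NO at 7 days without moderation, 0 in place of 1 in the control from 7 to 14 days with the amplification factors, without moderation and with the compared groups only, and 2 in place of 0 with NO from 7 to 14 days with the amplification factors and with the compared groups only.

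Deviations from the group mean over 18 genes were correlated between control and NO-treated samples of the same day. With the same replicate number, r was -0.70 to 0.30 on cycles and -0.33 to 0.49 on relative expression. With different numbers it was -0.51 to 0.76 and -0.62 to 0.41. A correlation over genes leaves out any shift shared by a whole sample, so whether the numbers pair the samples remained undecided. With the replicate block 3 further calls were made, Lea1 lower with NO at 21 days (1 gene in place of 0, adjusted p = 0.0488), the difference of NO effects on Lea4 between 7 and 21 days (1 in place of 0, adjusted p = 0.0453) and Lea2b to Lea4 with NO at 14 days (2 pairs in place of 1, adjusted p = 0.0325). The block changed no other call.

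Most signs that turned were those of changes not called above, but some turned values were called themselves. Without a reference gene, Lea2a (adjusted p = 0.0379 from limma), Lea2b (4.4e-05) and Lea4 (0.00105) were called lower from 7 to 14 days in the control. Above, Lea2a was called higher there. Lea2b was also called lower with NO at that step (adjusted p = 3.0e-05). On the deposited values scaled to 7 days, Lea2b (adjusted p = 0.000178) and Lea4 (0.0015) were called lower at the control step. When centred, Lea2b was called lower with NO at 7 days (adjusted p = 0.0192). Its centred differences of NO effects were called higher from 7 to 14 days (0.0111) and 7 to 21 days (0.0199). Centred Lea2a was called higher with NO from 14 to 21 days (adjusted p = 0.0459). It was also called higher from 7 to 21 days (adjusted p = 0.00476), where it was called lower above. From cycles with Sar1 and Pdi, the log2 effect of NO at 7 days was -0.20 for Lea2b and -0.037 for Lea4, and the differences of NO effects were 0.076 for Lea2b from 7 to 14 days and -0.025 for Lea4 from 14 to 21 days. With the amplification factors these were -0.20, -0.040, 0.069 and -0.013. With Sar1 alone, Lea2b had -0.086 with NO at 7 days, -0.091 in the control and -0.26 with NO from 7 to 14 days and a difference of 0.086 from 14 to 21 days, and Lea1 had -0.0033 with NO from 7 to 14 days. With Pdi alone, NO at 7 days gave -0.072 for Lea2a, -0.32 for Lea2b and -0.15 for Lea4, and NO at 14 days gave 0.0056 for Lea2b. The steps from 7 to 14 days were then 0.0011 for Lea1 in the control and 0.16 for Lea2a and 0.23 for Lea4 with NO, and the differences were 0.32 for Lea2b from 7 to 14 days and -0.26 for Lea4 from 14 to 21 days. Without a reference gene, Lea2b had -0.011 with NO at 7 days, the control steps from 7 to 14 days were -0.33 for Lea2a, -0.69 for Lea2b and -0.47 for Lea4, the NO-treated steps were -0.44 for Lea1 and -0.70 for Lea2b, Lea2b had -0.20 with NO from 7 to 21 days, and the differences were -0.12 for Lea4 from 14 to 21 days and -0.055 for Lea2a from 7 to 21 days. When centred, NO gave -0.13 for Lea2a, -0.37 for Lea2b and -0.21 for Lea4 at 7 days, 0.13 for Lea1 and 0.21 for Lea2b at 14 days and 0.16 for Lea2b at 21 days. The step from 7 to 14 days was then -0.084 for Lea2b in the control, and 0.17 for Lea2a and 0.24 for Lea4 with NO, and Lea2a had 0.33 from 14 to 21 and 0.49 from 7 to 21 days with NO. The centred differences were 0.58 for Lea2b and 0.098 for Lea4 from 7 to 14 days, and 0.53 for Lea1, 0.53 for Lea2b and 0.18 for Lea4 from 7 to 21 days. The deposited values scaled to 7 days gave -0.34 for Lea2a, -0.67 for Lea2b and -0.44 for Lea4 in the control from 7 to 14 days.

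With each replicate left out in turn, the Lea genes called ranged from 0 to 0, 0 to 2 and 0 to 2 for NO at 7, 14 and 21 days, from 0 to 1, 4 to 4 and 3 to 4 in the control for 14 against 7, 21 against 14 and 21 against 7 days, from 0 to 0, 2 to 3 and 3 to 4 with NO, and from 2 to 2, 1 to 1 and 0 to 1 for the differences. The Lea pairs called ranged from 0 to 3, 0 to 2 and 3 to 5 for NO, from 0 to 2, 3 to 5 and 5 to 6 in the control and from 0 to 2, 5 to 6 and 5 to 6 with NO. Signs turned within -0.30 to 0.13 for Lea1 and -0.13 to 0.070 for Lea2b with NO at 14 days, -0.15 to 0.033 for Lea2b with NO at 21 days, -0.46 to 0.11 for Lea1 and -0.11 to 0.13 for Lea2b in the control from 7 to 14 days, -0.12 to 0.078 for the difference of Lea2b from 14 to 21 days, and -0.30 to 0.11 for Lea1 and -0.025 to 0.18 for Lea2a for that from 7 to 21 days. Among pairs they turned within -0.24 to 0.20 for Lea1 to Lea2b and -0.32 to 0.12 for Lea2a to Lea4 with NO at 14 days, -0.11 to 0.33 for Lea2a to Lea4 in the control from 7 to 14 days, -0.41 to 0.054 for Lea1 to Lea4 in the control from 14 to 21 days and -0.13 to 0.01 for Lea2a to Lea4 with NO from 7 to 14 days.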
